A study of Mus musculus with 24 samples.

Results

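The lymphocyte-attracting and homeostatic chemokines of skin were followed across 3 body sites and their day 3 wounds in CD1 mice, an outbred stock. The set comprised 10 genes fixed by symbol, of 18368 genes with an expression value: Cxcl9 and Cxcl10 (interferon-inducible), Cxcl12, Cxcl13 and Ccl21a (stromal and homeostatic), Cxcl14, Cxcl16, Ccl20 and Ccl27a (made by or shared with epithelium) and Ccl5 (inflammatory, T cell-derived). RNA-seq was performed on whole punches of skin, so epidermis, dermis, fat, muscle and infiltrating cells were measured together. Of 24 libraries, 12 were unwounded skin and 12 were wounds, with 4 mice at the abdomen, 4 at the back and 4 at the cheek. Each mouse was used at a single site and supplied a wound library and a library of adjacent unwounded skin. All mice were 7 weeks old, their hair follicles synchronised in telogen (the resting phase), and each had full-thickness punch wounds 2 mm across, collected on day 3. Cheek mice carried a single wound and abdomen and back mice a pair, so in comparisons with the cheek, site and number of wounds cannot be told apart. All 24 libraries therefore shared strain, age, shaving and analgesia, and the unwounded skin was from wounded animals. Expression is given as FPKM (fragments mapped to a gene, relative to transcript length and to all mapped fragments of the library), which corrects for transcript length, so levels of different genes can be set side by side. The depth behind an FPKM value was unknown and no counting error could be given. All 10 genes passed the filter of at least 0.5 FPKM in at least 4 libraries.

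Chemokines are small secreted proteins that steer leukocytes through G protein-coupled receptors. Inflammatory chemokines are switched on by injury or cytokines, whereas homeostatic chemokines are made at rest and place lymphocytes, dendritic cells and stem cells in tissues. Cxcl9 and Cxcl10 bind Cxcr3 on activated T cells and NK cells. Ccl5 binds Ccr1 and Ccr3, among others. Cxcl16 is a membrane-anchored ligand of Cxcr6, released by the proteases Adam10 and Adam17. Cxcl12 retains cells that carry Cxcr4 and is scavenged by Ackr3. Cxcl13 draws B cells through Cxcr5, Ccl21a guides dendritic cells and T cells to lymphatic vessels through Ccr7, Ccl20 attracts Ccr6-bearing cells, Ccl27a is the keratinocyte ligand of Ccr10, and Cxcl14 is an abundant epithelial chemokine without an agreed signalling receptor.

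Cxcl9 (gene ID 17329, chromosome 5, 92321331 to 92328079) and Cxcl10 (gene ID 15945, chromosome 5, 92346638 to 92348889) lie 18.6 kb apart in GRCm38.p6 (the reads were mapped to GRCm38/mm10). Their promoters are shown because both genes had their highest log2 wound effect in the abdomen and varied together between libraries. The 250 bases before each transcription start, taken from RefSeq, are written 5′ to 3′ on the minus strand, with matches to 3 motifs in capitals.
Cxcl9, chr5:92328080-92328329: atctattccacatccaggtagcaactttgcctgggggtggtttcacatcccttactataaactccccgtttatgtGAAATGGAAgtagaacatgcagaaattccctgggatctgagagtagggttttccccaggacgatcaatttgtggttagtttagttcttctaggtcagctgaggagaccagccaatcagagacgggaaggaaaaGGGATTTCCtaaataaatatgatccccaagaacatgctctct
Cxcl10, chr5:92348890-92349139: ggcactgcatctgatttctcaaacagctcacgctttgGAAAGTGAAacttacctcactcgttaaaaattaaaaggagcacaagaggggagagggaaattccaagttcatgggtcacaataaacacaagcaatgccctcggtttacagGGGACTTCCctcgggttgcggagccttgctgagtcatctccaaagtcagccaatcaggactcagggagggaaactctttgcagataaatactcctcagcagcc
The motifs were GAAANNGAA (within the consensus of an interferon-stimulated response element), TTCNNNGAA (a gamma-activated site) and GGGANTTCC (a form of an NF-kB site), searched on both strands. The Cxcl10 window held GAAAGTGAA and GGGACTTCC, whose first bases lay 213 and 103 bases before the start. The Cxcl9 window held GAAATGGAA and GGGATTTCC, beginning 175 and 42 bases before the start. Of 32851 RefSeq promoter windows of this length, 7.13% held GAAANNGAA, 7.02% TTCNNNGAA and 1.43% GGGANTTCC. The promoter table had entries for 8 of the 10 chemokines (not Cxcl16 or Ccl5), and of the other 6 only Cxcl14 held a match, a GAAANNGAA and a TTCNNNGAA. A match is a description of the letters and not proof of a binding site. In the same build the other chemokine genes lie on chromosome 1 (Ccl20, 83116766 to 83119167), 4 (Ccl21a, 42772860 to 42773991), 5 (Cxcl13, 95956939 to 95961068), 6 (Cxcl12, 117168535 to 117181368), 11 (Cxcl16, 70454389 to 70459984, and Ccl5, 83525778 to 83530518) and 13 (Cxcl14, 56288643 to 56296811).

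Wounding was tested within mice, over all 24 libraries, with limma on log2(FPKM + 0.5), with Benjamini-Hochberg adjustment over all 14423 genes tested. A gene was called when its adjusted p was under 0.05. In abdomen wounds 5 of the 10 chemokines rose (Cxcl9, Cxcl10, Cxcl12, Cxcl16 and Ccl5) and 1 fell (Ccl20). Over all tested genes 16.9% rose and 16% fell there. In back wounds 5 rose (Cxcl10, Cxcl12, Cxcl13, Cxcl16 and Ccl5) and 0 fell, beside 28% and 17.9% of all genes. In cheek wounds 4 rose (Cxcl12, Cxcl13, Cxcl16 and Ccl5) and 1 fell (Cxcl14), beside 19.7% and 16.9%. Cxcl12, Cxcl16 and Ccl5 rose at all 3 sites, with wound libraries that did not overlap the unwounded libraries of the same site. The share of all tested genes that did so was not counted. The median log2 change of the 10 chemokines was 0.49, 0.95 and 1.07 at abdomen, back and cheek, beside -0.01, 0.07 and 0.01 over all tested genes. At a stricter adjusted p of 0.001, 0 chemokines were called in abdomen, 2 in back (Cxcl16 and Ccl5) and 1 in cheek (Cxcl16), beside 4.96%, 14.4% and 8.69% of all genes. The exact sign-change test over 4 pairs cannot go below p = 0.125, and it is at that value wherever all 4 mice moved the same way.

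**Figure D1:**
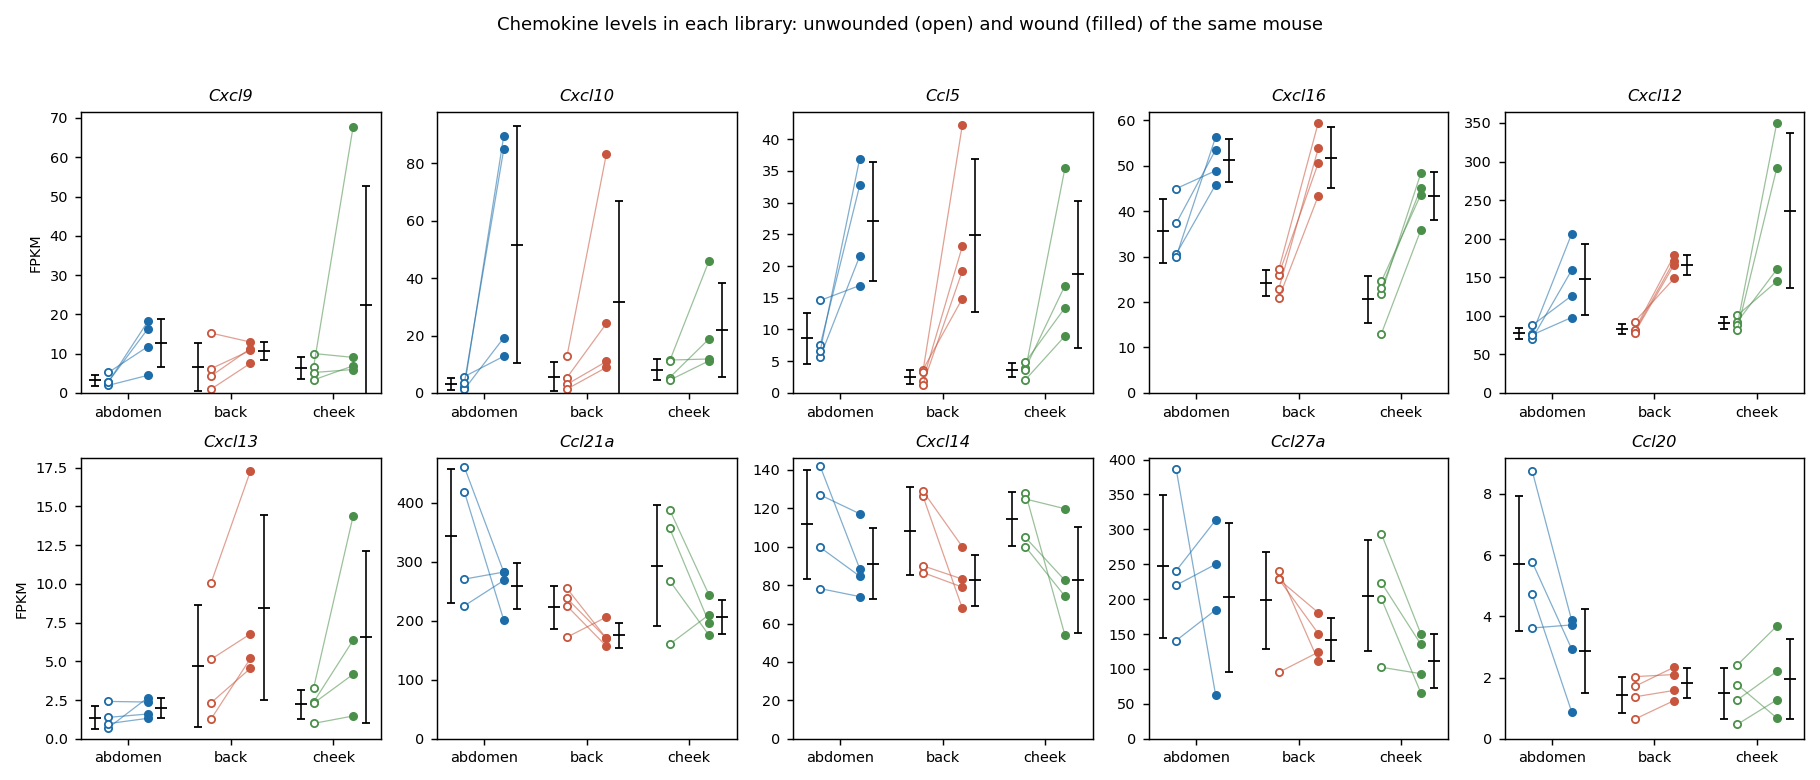
FPKM of the 10 chemokines (y axes, linear, each from 0) in abdomen, back and cheek skin. Open points are unwounded and filled points wound libraries, lines join the libraries of a mouse, and black bars give the mean and SD of 4 libraries (an SD reaching below 0 is cut at the axis). Ccl5, Cxcl16 and Cxcl12 wounds lie above unwounded skin at all sites, and Ccl20 is highest in unwounded abdomen skin (3.62 to 8.76 FPKM).

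Cxcl10 had the largest wound effect of the set in the abdomen. In abdomen mice 1 to 4, Cxcl10 measured 1.99, 5.7, 1.25 and 3.45 FPKM in unwounded skin and 89.64, 12.78, 19.24 and 84.99 FPKM in the wounds. All wounds lay above all unwounded libraries, and mice 1 and 4 had far higher wound levels than mice 2 and 3. The log2 change was 3.55 (SE 0.54, n = 4 mice; limma adjusted p = 0.00102). In the back, Cxcl10 measured 5.34, 3.00, 12.76 and 1.37 FPKM in unwounded skin and 24.20, 10.97, 83.29 and 8.91 FPKM in wounds. It rose in 4 of 4 back mice, although the groups overlapped, because mouse 3 was highest in both states (log2 change 2.2, SE 0.54, limma adjusted p = 0.00761). In the cheek it measured 11.46, 11.03, 5.33 and 4.43 FPKM in unwounded skin and 11.83, 46.00, 18.82 and 11.19 FPKM in wounds. All 4 cheek mice moved up, mouse 1 by very little, and the log2 difference of 1.26 (SE 0.54, limma adjusted p = 0.0927) did not pass the threshold. It passed in a fit of the 8 cheek libraries alone (limma adjusted p = 0.0283) and without abdomen mouse 2 (0.0121).

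Cxcl9 had a less certain wound effect than Cxcl10. In abdomen mice 1 to 4 it measured 2.88, 5.22, 1.94 and 2.80 FPKM in unwounded skin and 16.34, 11.81, 4.49 and 18.22 FPKM in wounds, a rise in 4 of 4 mice with groups that overlapped only through the wound of mouse 3. The log2 change was 1.74 (SE 0.55, limma adjusted p = 0.0335). It did not pass without abdomen mouse 1 (adjusted p = 0.105), 3 (0.0519) or 4 (0.127), or without the mouse term (0.0633). In the back, Cxcl9 measured 6.18, 4.31, 15.25 and 0.97 FPKM in unwounded skin and 10.84, 11.31, 12.96 and 7.56 FPKM in wounds (log2 difference 1.07, SE 0.55, limma adjusted p = 0.135, higher in 3 of 4 mice). In the cheek it measured 10.04, 6.64, 5.2 and 3.32 FPKM in unwounded skin and 9.06, 67.69, 5.97 and 6.91 FPKM in wounds. The wound of cheek mouse 2 stood far above the other libraries of the set (log2 difference 1.06, SE 0.55, limma adjusted p = 0.155). Without that mouse the log2 difference was 0.33 (adjusted p = 0.643). The same wound was also the highest cheek library for Cxcl10 and for Ccl5.

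Cxcl11, the remaining ligand of Cxcr3, rose in the abdomen (mean 0.20 FPKM unwounded and 3.52 in wounds, log2 change 2.34, limma adjusted p = 0.0053), the site where Cxcl9 and Cxcl10 also had their largest log2 wound effects. Unwounded means of Cxcl9 were also lowest there, at 3.21 FPKM beside 6.68 in back and 6.30 in cheek. Those of Cxcl10 were 3.10, 5.62 and 8.06 FPKM. Among wounds, the Cxcl9 mean was highest in cheek (22.4 FPKM, beside 12.7 in abdomen), where mouse 2 stood far above the others. Its log2 differences of 0.99 in the back and 0.65 in the cheek were not called (adjusted p = 0.13 and 0.33). The Cxcl11 wound effect was not called as differing between sites (moderated F test over the 3 sites, limma adjusted p = 0.425). Of the interferon-gamma axis genes, 6 were tested: 3 rose in abdomen, 5 in back and 5 in cheek wounds, and 0 fell. Among all tested genes 16.9%, 28% and 19.7% rose at these sites. Ifngr2 (a receptor chain), Irf1 (a transcription factor) and Socs1 (a feedback inhibitor) rose at all 3 sites, and Jak1 and Jak2 (receptor kinases) rose in back and cheek. Ifngr1 was not called at any site. Ifng itself was between 0.00 and 0.95 FPKM in all libraries and was too low to be tested. The interferon-axis genes and Cxcl10 cover the same libraries, and no part of the change in Cxcl10 was attributed to them.

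Ccl5 rose at every site. In abdomen mice 1 to 4, Ccl5 measured 5.7, 14.58, 7.56 and 6.67 FPKM in unwounded skin and 21.58, 16.93, 32.71 and 36.94 FPKM in wounds. The wounds were above the unwounded libraries, with mouse 2 nearly level between states (log2 change 1.62, SE 0.38, limma adjusted p = 0.00883). In a fit of the 8 abdomen libraries alone the adjusted p was 0.05002 and the call was lost. In the back it measured 3.65, 1.89, 3.34 and 1.33 FPKM in unwounded skin and 14.87, 23.12, 42.19 and 19.23 FPKM in wounds, the largest rise of the set in the back (log2 change 3.02, SE 0.38, limma adjusted p = 0.000121). In the cheek it measured 3.92, 3.63, 4.88 and 2.10 FPKM in unwounded skin and 16.92, 35.41, 13.41 and 8.97 FPKM in wounds (log2 change 2.08, SE 0.38, limma adjusted p = 0.00179). At each of the 3 sites the groups were apart and 4 of 4 mice moved up. The wound means of 27.0 ± 9.35, 24.9 ± 12.0 and 18.7 ± 11.6 FPKM (SD, n = 4) in abdomen, back and cheek overlapped.

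Cxcl16 had the lowest standard error of the set. It measured 30.54, 44.94, 37.31 and 29.96 FPKM in unwounded abdomen skin and 45.82, 48.88, 53.49 and 56.31 FPKM in abdomen wounds (log2 change 0.53, SE 0.12, limma adjusted p = 0.00491). In the back it measured 26.05, 22.87, 27.16 and 20.84 FPKM in unwounded skin and 50.57, 53.77, 59.42 and 43.34 FPKM in wounds (log2 change 1.08, SE 0.12, limma adjusted p = 1.83e-05). In the cheek the values were 24.53, 21.81, 22.99 and 13.03 FPKM unwounded and 43.63, 48.31, 45.07 and 35.85 FPKM in wounds (log2 change 1.08, SE 0.12, limma adjusted p = 2.38e-05). Every wound was above every unwounded library of its site, and the wound means lay close together at 51.1 ± 4.68, 51.8 ± 6.71 and 43.2 ± 5.29 FPKM (SD, n = 4). The smaller log2 change in the abdomen accompanied a higher unwounded level, 35.7 ± 7.01 FPKM beside 24.2 ± 2.90 in back and 20.6 ± 5.16 in cheek. Of the enzymes that shed or cut chemokines, Adam10 rose in back and cheek wounds (log2 change 0.49 and 0.42, limma adjusted p = 0.0025 and 0.0087), as did Adam17 (0.49 and 0.44, adjusted p = 0.00099 and 0.0027). Dpp4, a peptidase that trims several chemokines including Cxcl10 and Cxcl12, fell in abdomen and back (log2 change -0.84 and -0.54, limma adjusted p = 0.0051 and 0.030).

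Cxcl12 was the most abundant chemokine of the set among those that rose. It measured 76.37, 70.25, 75.21 and 87.57 FPKM in unwounded abdomen skin and 205.98, 158.96, 97.81 and 125.90 FPKM in abdomen wounds (log2 change 0.87, SE 0.24, limma adjusted p = 0.0148). In the back it measured 79.94, 81.94, 78.24 and 92.55 FPKM unwounded and 171.08, 178.52, 166.46 and 148.56 FPKM in wounds (log2 change 0.99, SE 0.24, limma adjusted p = 0.00499). In the cheek it measured 100.64, 92.09, 87.92 and 81.48 FPKM unwounded and 144.57, 160.07, 349.89 and 291.35 FPKM in wounds (log2 change 1.28, SE 0.24, limma adjusted p = 0.00148). Unwounded levels were tight at every site, whereas the wounds of cheek mice 3 and 4 lay far above those of mice 1 and 2. The abdomen call did not hold without abdomen mouse 1 (adjusted p = 0.0749) or 2 (0.0595). Ackr3, the scavenging receptor of Cxcl12, was not called at any site (log2 differences of -0.37, 0.02 and -0.30).

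Cxcl13 was low and rose in back and cheek wounds. It measured 1.27, 2.32, 10.05 and 5.13 FPKM in unwounded back skin and 5.19, 4.55, 17.29 and 6.77 FPKM in back wounds, a rise in 4 of 4 mice against large differences between mice (log2 change 0.91, SE 0.28, limma adjusted p = 0.0181). In the cheek it measured 3.28, 0.99, 2.37 and 2.29 FPKM unwounded and 14.36, 1.47, 6.36 and 4.16 FPKM in wounds (log2 change 1.09, SE 0.28, limma adjusted p = 0.00915). In the abdomen, values were 0.71, 2.41, 1.38 and 0.98 FPKM unwounded and 2.66, 2.37, 1.60 and 1.32 FPKM in wounds (log2 difference 0.46, SE 0.28, limma adjusted p = 0.226). The calls rested on the pairing within mice: without the mouse term the adjusted p was 0.205 in back and 0.146 in cheek. They were also lost without back mouse 1 (adjusted p = 0.0980) and without cheek mouse 1 (0.0522). Cxcr5, its receptor, reached 0.69 FPKM at most and was not tested, and of the B cell markers only Cd79b was high enough to be tested (it rose at all 3 sites), while Cd79a, Ms4a1 and Pax5 averaged under 0.4 FPKM in every group.

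Ccl21a and Ccl27a were the most abundant chemokines of the set in unwounded skin, and their wound effects were not called. In cheek wounds Cxcl12 averaged 236 FPKM, above both. In back wounds it averaged 166 FPKM, above Ccl27a. Ccl21a averaged 343 ± 113, 222 ± 35.7 and 293 ± 102 FPKM (SD, n = 4) in unwounded abdomen, back and cheek skin and 258 ± 38.9, 176 ± 21.2 and 206 ± 28.6 FPKM in the wounds. The log2 differences of -0.36, -0.33 and -0.44 had 95% intervals of -0.88 to 0.15, -0.85 to 0.19 and -0.95 to 0.08, and 2, 3 and 3 of 4 mice were lower in the wound. Ccl21a is made by lymphatic endothelium. Of 5 lymphatic markers tested, 3 fell in abdomen wounds (Lyve1, Mmrn1 and Reln) and 0 rose, beside 16% and 16.9% of all genes. In back and cheek wounds 1 of 5 fell (Mmrn1), a share close to the 17.9% and 16.9% of all genes that fell there, and in cheek Prox1, Flt4 and Reln had log2 differences of 0.19, 0.12 and 0.08 that were not called. The summed FPKM of the 5 markers ranged from 23.5 to 32.8 in unwounded abdomen and 12.0 to 20.3 in abdomen wounds, 12.2 to 18.8 and 12.5 to 14.3 at the back, and 15.1 to 24.0 and 14.2 to 18.3 at the cheek. The part of these markers in the Ccl21a values was not tested. In bulk skin, fewer cells of a type and less RNA per cell cannot be told apart.

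**Figure D2:**
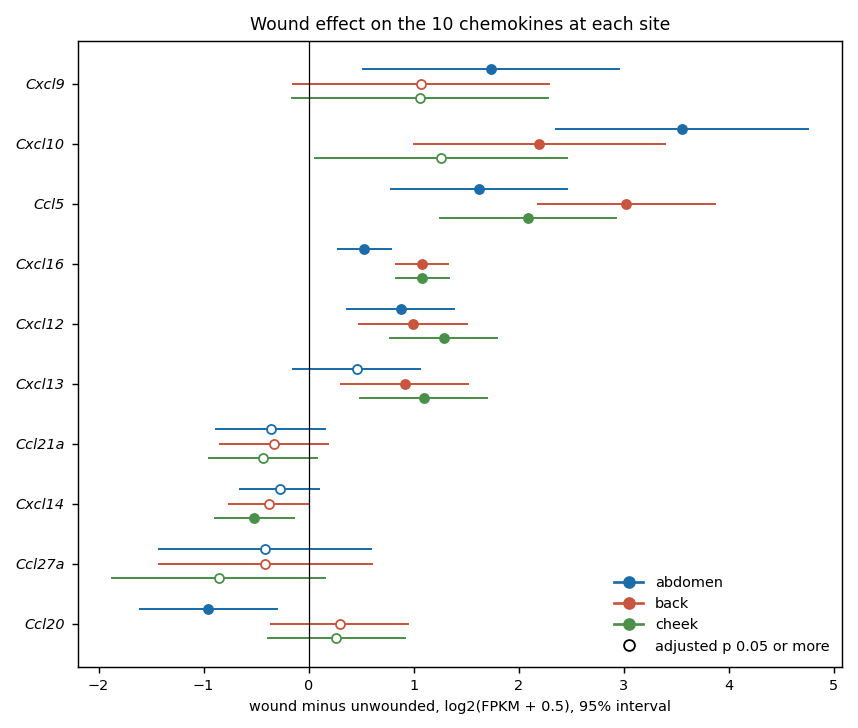
Wound minus unwounded difference in log2(FPKM + 0.5) (x axis) for each chemokine (y axis) at abdomen, back and cheek, with the 95% interval from limma over 12 mice. Filled points have an adjusted p under 0.05; Ccl5, Cxcl16 and Cxcl12 are filled at all 3 sites, and Cxcl10 runs from 3.55 in abdomen to 1.26 in cheek.

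Ccl27a (gene ID 20301, chromosome 4, 41769467 to 41774225) averaged 247 ± 102, 198 ± 68.9 and 205 ± 79.0 FPKM in unwounded abdomen, back and cheek skin and 203 ± 107, 142 ± 30.6 and 111 ± 38.8 FPKM in the wounds (SD, n = 4). It was lower in the wound in 1 of 4 abdomen, 3 of 4 back and 4 of 4 cheek mice (log2 differences of -0.42, -0.41 and -0.86, SE 0.46, limma adjusted p = 0.517, 0.488 and 0.167). The abdomen difference was set by mouse 1, in which it went from 385.94 to 62.43 FPKM. Without that mouse it was 0.32 (adjusted p = 0.418), and the cheek difference was then called (adjusted p = 0.0150), as it was in a fit of the 8 cheek libraries alone (0.0339). Ccl27a has a copy, Ccl27b, on the same chromosome that is near-identical in part, so reads can be split between them. The most alike stretch before a start site of each is shown (236 of 238 bases equal, the others in capitals). It was picked for its likeness, by sliding all their promoter windows along each other. It does not measure how alike the copies are elsewhere.
Ccl27a, chr4:41770225-41770462, minus strand: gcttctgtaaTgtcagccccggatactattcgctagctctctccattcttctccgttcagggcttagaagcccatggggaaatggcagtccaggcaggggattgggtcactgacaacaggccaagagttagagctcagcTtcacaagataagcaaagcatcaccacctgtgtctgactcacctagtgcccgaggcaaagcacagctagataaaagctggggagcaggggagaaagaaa
Ccl27b, chr4:42655013-42655250, plus strand: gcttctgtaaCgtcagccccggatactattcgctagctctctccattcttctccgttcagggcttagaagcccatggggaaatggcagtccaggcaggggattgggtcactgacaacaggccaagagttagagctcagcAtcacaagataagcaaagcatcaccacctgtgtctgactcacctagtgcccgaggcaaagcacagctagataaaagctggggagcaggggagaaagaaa
In GENCODE M21 transcripts, 40.2% of the distinct 100-base words of Ccl27b also occurred in Ccl27a, and 39.3% of those of Ccl21b occurred in Ccl21a. In the other direction, 4.38% of the words of Ccl27a (131 of 2991, over 19 annotated transcripts) occurred in Ccl27b and 15.4% of those of Ccl21a in Ccl21b.

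The division of signal between the copies varied from library to library. In the unwounded back, Ccl27a measured 228.42, 228.75, 240.52 and 95.15 FPKM in mice 1 to 4, and Ccl27b measured 64.44, 106.11, 0.93 and 194.75 FPKM. The mouse with the low Ccl27a value had the high Ccl27b value, and their sums lay between 241 and 335 FPKM. In the unwounded cheek, Ccl27b reached 362.56 FPKM in mouse 3 beside 200.49 FPKM of Ccl27a. Summed with its copy, Ccl27a averaged 394 ± 115, 290 ± 38.2 and 369 ± 174 FPKM in unwounded abdomen, back and cheek and 253 ± 133, 220 ± 75.0 and 161 ± 57.9 FPKM in wounds (SD, n = 4). The sum was lower in the wound in 4 of 4 abdomen, 3 of 4 back and 4 of 4 cheek mice (log2 differences of -0.86, -0.44 and -1.12, SE 0.50), and limma adjusted p-values of 0.211, 0.498 and 0.103 did not pass. This sum was added after the values were seen. Ccl21b was 0.00 to 20.21 FPKM, small beside Ccl21a, and summing that pair left the log2 differences of Ccl21a at -0.38, -0.36 and -0.45.

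**Figure D3:**
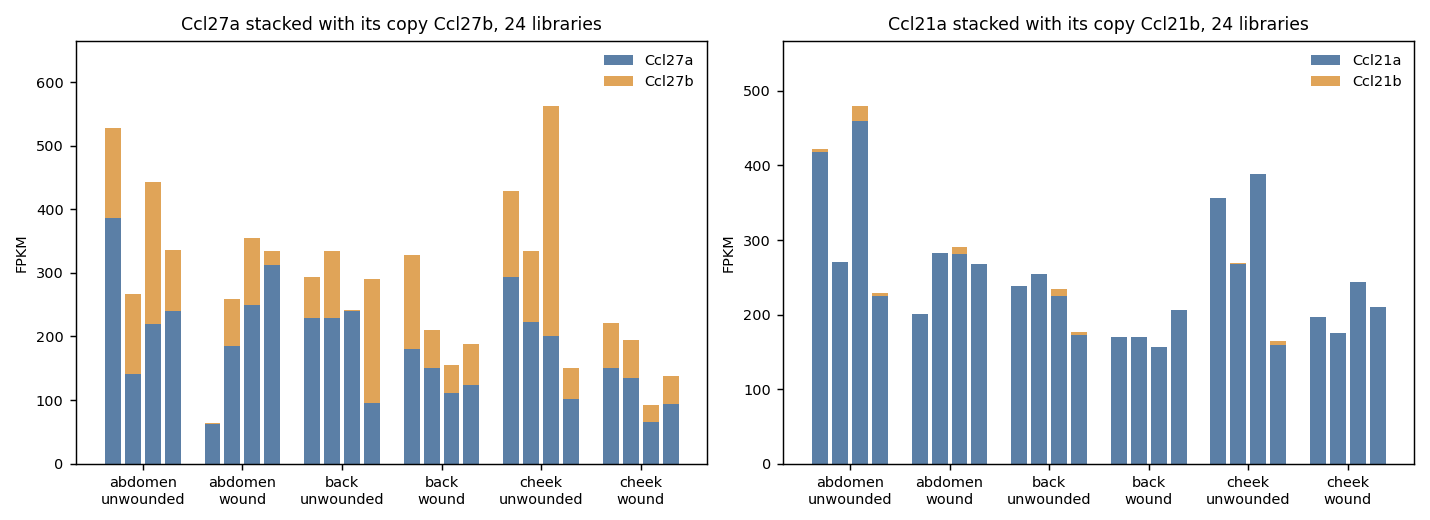
Stacked FPKM (y axes, from 0) of Ccl27a with Ccl27b and of Ccl21a with Ccl21b in each of 24 libraries (x axes, 6 groups of 4, mice 1 to 4 from left to right). Ccl27b takes from 0.93 to 362.56 FPKM, while Ccl21b is at most 20.21 FPKM.

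Cxcl14 fell in the cheek. It measured 100, 127.96, 104.84 and 124.89 FPKM in unwounded cheek skin and 74.25, 53.96, 82.50 and 119.82 FPKM in cheek wounds, lower in 4 of 4 mice (log2 change -0.52, SE 0.17, limma adjusted p = 0.0351). It was also lower in all 4 mice of the abdomen and of the back, with log2 differences of -0.28 and -0.38 that were not called (adjusted p = 0.243 and 0.0952). The cheek call was lost without cheek mouse 1 (adjusted p = 0.0706), 2 (0.212) or 3 (0.0605), without the mouse term (0.0700) and in a fit of the cheek libraries alone (0.0881). The back difference was called with quantile normalization (adjusted p = 0.0406), in a fit of the back libraries alone (0.0428) and without cheek mouse 2 (0.0367). Keratinocyte markers moved in both directions beside these epithelial chemokines. Of 5 basal markers 1, 2 and 3 rose and 2, 2 and 1 fell at abdomen, back and cheek (Krt14 rose and Krt15 fell at all 3 sites). Of 5 suprabasal markers Krt1 rose at each site and 0 fell. Beside these counts, 16.9%, 28% and 19.7% of all tested genes rose and 16%, 17.9% and 16.9% fell at abdomen, back and cheek. The summed basal markers ranged from 4414 to 5869 FPKM in unwounded abdomen and 5278 to 10803 in abdomen wounds, and from 3624 to 4651 and 5469 to 10878 in the cheek. The part of keratinocyte content in Cxcl14 and Ccl27a was not tested.

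Ccl20 was the chemokine with the clearest difference between sites in unwounded skin. It measured 4.72, 8.76, 5.78 and 3.62 FPKM in unwounded abdomen, 1.71, 0.64, 1.37 and 2.03 FPKM in unwounded back and 1.27, 0.47, 1.77 and 2.41 FPKM in unwounded cheek. Every abdomen library lay above every back and cheek library. Compared across the 12 unwounded libraries, Ccl20 was lower in back by 1.68 (log2 change -1.68, SE 0.35, limma adjusted p = 0.0287) and in cheek by 1.70 (log2 change -1.70, SE 0.35, limma adjusted p = 0.0313). An exact permutation test of 4 libraries against 4 gave p = 0.029 for each, the smallest it allows. These calls did not hold without abdomen mouse 2 (adjusted p = 0.0982 for back and 0.0981 for cheek) or 3 (0.0834 and 0.104), nor for back without back mouse 2 (0.0874) or 3 (0.0762), nor for cheek without cheek mouse 1 (0.0782) or 2 (0.0806).

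The same unwounded abdomen libraries entered the wound effect of Ccl20. Abdomen wounds measured 0.89, 3.88, 2.94 and 3.72 FPKM, lower than unwounded skin in 3 of 4 mice (log2 change -0.96, SE 0.30, limma adjusted p = 0.0283). The fall was largest in mouse 1 and absent in mouse 4, where 3.62 FPKM became 3.72. The call was lost without abdomen mouse 1 (adjusted p = 0.143), 2 (0.0815) or 3 (0.0693), without the mouse term (0.0871) and in the 8 abdomen libraries alone (0.0736). Back wounds measured 2.34, 1.25, 1.58 and 2.10 FPKM and cheek wounds 2.2, 1.27, 0.68 and 3.68 FPKM, with log2 differences of 0.29 and 0.26 (limma adjusted p = 0.450 and 0.522). Between wounds of the 3 sites Ccl20 overlapped, at 2.86 ± 1.37, 1.82 ± 0.494 and 1.96 ± 1.31 FPKM (SD, n = 4).

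In unwounded skin, 2 of 10 chemokines were lower in back than in abdomen (Ccl20 and Ccl5), where 2.14% of 13956 tested genes were lower and 0.53% higher. For cheek against abdomen 2 were lower (Ccl20 and Cxcl16), where 1.23% of genes were lower and 1.33% higher. For cheek against back 0 were called by limma, and 0 also had an unadjusted p under 0.05, beside 1.05% of genes called and 21.6% with an unadjusted p under 0.05. At abdomen, back and cheek, Ccl5 was 8.63 ± 4.04, 2.55 ± 1.12 and 3.63 ± 1.15 FPKM (SD, n = 4). All abdomen libraries were above the others (back against abdomen, log2 change -1.57, SE 0.33, limma adjusted p = 0.0287; cheek against abdomen, log2 difference -1.10, SE 0.33, adjusted p = 0.10). The back call did not hold without abdomen mouse 2 (adjusted p = 0.0787) or 3 (0.0796) or back mouse 2 (0.0946) or 4 (0.0625). Cxcl16 differed from abdomen by -0.80 in cheek (SE 0.19, limma adjusted p = 0.0445) and by -0.54 in back (SE 0.19, limma adjusted p = 0.135), again with no overlap. Without single mice the cheek call held in 2 of 12 fits, with adjusted p up to 0.139. Abdomen mouse 2 had the highest unwounded value of all 3 chemokines (8.76 FPKM of Ccl20, 14.58 of Ccl5 and 44.94 of Cxcl16). Over all genes of these fits the median log2 difference was -0.12 in back against abdomen and 0.14 in cheek relative to back. With median-ratio scaling, which brought these medians to 0.0041 and 0.010, the same 2 chemokines were called in each comparison with abdomen, and calls over all genes went from 74 higher and 299 lower to 80 and 129 in back against abdomen, from 186 and 172 to 104 and 174 in cheek against abdomen and from 78 and 69 to 38 and 119 in cheek against back.

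Lymphocyte markers gave no call between sites in unwounded skin. The summed FPKM of 9 T cell markers was 48.6 to 61.2 at the unwounded abdomen, 31.6 to 47.9 at the back and 21.0 to 49.3 at the cheek, and 0 of the 7 tested were called between sites by limma. Over all tested genes 2.67% were called for back against abdomen, 2.57% for cheek against abdomen and 1.05% for cheek against back. The T cell sums of abdomen and back did not overlap. The Langerhans and dendritic cell markers summed to 96.4 to 158, 72.1 to 98.7 and 95.5 to 125 FPKM at the same sites, also with 0 called. Skeletal muscle markers summed to 366 to 11155, 10920 to 17330 and 8403 to 16600 FPKM. The part of cell content in the higher abdomen levels of Ccl20, Ccl5 and Cxcl16 was not tested.

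Between wounds of the sites, 0 of the 10 chemokines were called in any of the 3 comparisons by limma, where 1.27% of 14023 genes were called for back against abdomen, 10.8% for cheek against abdomen and 2.5% for cheek against back. Without adjustment, 2 had p under 0.05 for back against abdomen (Cxcl13 and Ccl21a), 2 for cheek against abdomen (Cxcl12 and Ccl21a) and 1 for cheek against back (Cxcl16), beside 16.5%, 31.6% and 26.1% of all genes. Cxcl13 was 8.45 ± 5.97 FPKM in back wounds and 1.99 ± 0.631 in abdomen wounds (SD, n = 4) without overlap (log2 difference 1.69, 95% interval 0.45 to 2.93, limma adjusted p = 0.165; exact permutation p = 0.029). Ccl21a was lower in back than in abdomen wounds by a log2 difference of -0.55 (95% interval -0.84 to -0.26, limma adjusted p = 0.065). With median-ratio scaling the calls over all genes went from 71 higher and 107 lower to 76 and 76, from 1054 and 465 to 664 and 738, and from 267 and 84 to 74 and 108, in the order of the comparisons above.

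Whether the wound effect itself differed between sites was tested with a moderated F test over the 3 sites. By limma 0 of the 10 chemokines were called, as were 0.0208% of all genes (3 of 14423). Without adjustment 3 chemokines had p under 0.05 (Cxcl16 with 0.00692, Ccl20 with 0.0182 and Cxcl10 with 0.0378), beside 12.9% of all genes. The Cxcl16 wound effect was larger by 0.55 in back (95% interval 0.19 to 0.91, limma adjusted p = 0.170) and by 0.55 in cheek (0.20 to 0.91, adjusted p = 0.292) than in abdomen. The Ccl20 wound effect was higher by 1.25 in back (0.33 to 2.17, limma adjusted p = 0.209) and by 1.22 in cheek (0.30 to 2.14, adjusted p = 0.336). For Cxcl10 the cheek effect was below the abdomen effect (difference -2.29, 95% interval -3.99 to -0.60, limma adjusted p = 0.334). A site-dependent wound response was therefore not shown for any chemokine of the set, and intervals of this width do not show equal responses either.

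Most receptors of these chemokines rose in the wounds. Of 7 receptors tested (Cxcr5 and Ccr10 were too low), 4, 6 and 6 rose at abdomen, back and cheek, and 0 fell. Over all tested genes 16.9%, 28% and 19.7% rose there. Cxcr4, the Cxcl12 receptor, had unwounded means of 3.07, 3.82 and 4.58 FPKM and wound means of 14.2, 19.8 and 23.8 FPKM at abdomen, back and cheek (log2 changes of 2.03, 2.24 and 2.30, limma adjusted p = 3.8e-06, 7.7e-07 and 6.7e-07). Ccr1, a receptor of Ccl5, rose at all 3 sites by log2 changes of 2.30, 2.73 and 3.54. Ccr3 rose in back (log2 change 0.77, limma adjusted p = 0.0063), with uncalled log2 differences of 0.23 in abdomen and 0.52 in cheek (adjusted p = 0.39 and 0.053), and its wound effect was not called as differing between sites (moderated F test, limma adjusted p = 0.52). Ccr7, the Ccl21a receptor, rose by 1.27, 2.04 and 1.75 (limma adjusted p = 0.034, 0.0022 and 0.0069), whereas Ccl21a was not called. Cxcr3, the receptor of Cxcl9 and Cxcl10, rose by 0.43, 0.47 and 0.53 (limma adjusted p = 0.020, 0.0093 and 0.0063). Ccr6, the Ccl20 receptor, rose in back (1.02, limma adjusted p = 0.00095) and cheek (0.59, 0.028), with an uncalled value of -0.15 in abdomen. Its wound effect was not called as differing between sites (moderated F test, limma adjusted p = 0.23). Cxcr6, the Cxcl16 receptor, rose in cheek (0.64, limma adjusted p = 0.043), with uncalled values of -0.33 and 0.08 in abdomen and back. For Cxcr6 too the moderated F test gave no call for a difference between sites (adjusted p = 0.34). Ccr10, the Ccl27a receptor, stayed between 0.07 and 0.55 FPKM. Between wounds, Cxcr4 and Ccr1 were higher in cheek than in abdomen (log2 change 0.72 and 1.07, limma adjusted p = 0.0096 and 0.022), beside 7.52% of all genes. Their wound effects were not called as differing between sites (moderated F test, limma adjusted p = 0.73 and 0.27).

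Atypical receptors, which do not signal through G proteins, moved both ways. Ackr4, the scavenger of Ccl21 and Ccl20, fell by 0.82, 0.93 and 1.05 on the log2 scale (limma adjusted p = 0.021, 0.0082 and 0.0056), from means of 35.2, 22.6 and 26.7 FPKM to 20.4, 11.8 and 13.3. It was also lower in unwounded back than abdomen skin (log2 change -0.62, limma adjusted p = 0.044). Ackr2, which clears inflammatory CC chemokines such as Ccl5, fell at all 3 sites (log2 changes of -0.94, -0.93 and -0.64), and Ackr1, a marker of venules, fell in cheek (-0.48, limma adjusted p = 0.046). Ccrl2 rose from 1.2, 1.60 and 1.67 FPKM to 11.5, 21.6 and 20.0 FPKM (log2 changes of 2.73, 3.36 and 3.13).

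**Figure D4:**
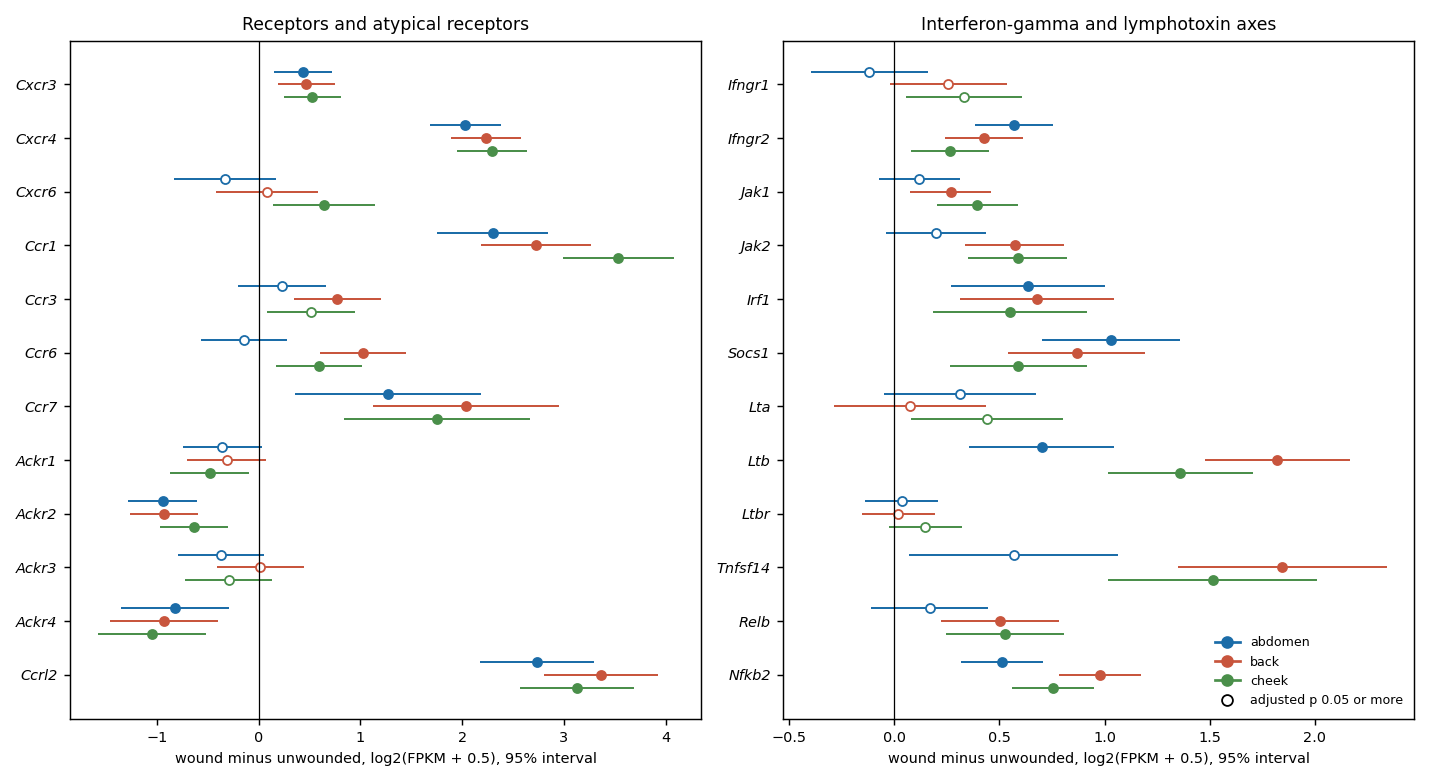
Wound minus unwounded difference in log2(FPKM + 0.5) (x axes) with 95% intervals for receptors and atypical receptors (left) and for genes of the interferon-gamma and lymphotoxin axes (right) at the 3 sites. Filled points have an adjusted p under 0.05; Cxcr4, Ccr1 and Ccrl2 rise at every site while Ackr2 and Ackr4 fall.

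The lymphotoxin axis, which maintains homeostatic chemokines in lymphoid tissue through non-canonical NF-kB, rose in part: of 6 genes 2, 4 and 4 rose at the same 3 sites, and 0 fell. Ltb (a lymphotoxin chain) rose by 0.70, 1.82 and 1.36 (limma adjusted p = 0.0053, 3.2e-06 and 4.2e-05) and Nfkb2 by 0.51, 0.98 and 0.75 (0.0012, 4.1e-06 and 4.4e-05). Tnfsf14 and Relb rose in back and cheek. Lta and the receptor Ltbr were not called at any site. Among 11 other lymphocyte and dendritic cell chemokines tested, 1 rose in abdomen (Cxcl11), 1 in back (Ccl1, log2 change 1.66, limma adjusted p = 0.023) and 0 in cheek, and 0 fell. Beside both lists, 16.9%, 28% and 19.7% of all tested genes rose at abdomen, back and cheek, and 16%, 17.9% and 16.9% fell.

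Markers of several leukocyte types rose beside these chemokines, while T cell markers moved both ways. The shares of all tested genes were 16.9%, 28% and 19.7% rising and 16%, 17.9% and 16.9% falling at abdomen, back and cheek. Of 7 markers of NK cells and cytotoxic lymphocytes, which secrete Ccl5 and carry Cxcr3, 4, 5 and 5 rose and 0 fell at abdomen, back and cheek; their summed FPKM ranged from 13.4 to 20.3, 8.2 to 17.4 and 5.8 to 15.7 in unwounded abdomen, back and cheek and from 22.1 to 34.3, 18.9 to 60.4 and 13.0 to 31.3 in wounds. T cell markers were mixed: of 9, the abdomen, back and cheek wounds had 3, 6 and 4 that rose and 1, 2 and 2 that fell, with Cd4, Cd8a and Cd28 up and Cd3g down at all 3 sites. The T cell counts that fell were near the share of all genes that fell. The medians of the T cell sums were 56.7, 38.8 and 37.9 FPKM in unwounded skin and 46.1, 32.7 and 33.1 FPKM in wounds. Their ranges overlapped at each site. Of 6 macrophage markers 4, 6 and 6 rose, of 5 neutrophil markers 5, 4 and 5 rose, and of 5 blood endothelial markers all rose at each site. Of 5 fibroblast markers, of a cell type that makes Cxcl12, 3, 2 and 2 fell and 0, 1 and 1 rose at abdomen, back and cheek (Col1a1 and Col1a2 fell at all 3 sites, and Pdgfra rose in back and cheek). Of the gamma-delta T cell list 2 genes could be tested, of which Gpr18 rose at all 3 sites, and Il17a was at or near 0. Of 6 Langerhans and dendritic cell markers Itgax and Flt3 rose at all 3 sites and Epcam fell in abdomen. The medians of these sums were 130.6, 86.9 and 105.9 FPKM in unwounded skin and 104.8, 82.4 and 96.8 FPKM in wounds, with overlapping ranges. Adipocyte markers fell in wounds. Of 5 adipocyte markers 5, 5 and 4 fell at abdomen, back and cheek, and their sums were 403 to 503, 459 to 567 and 342 to 787 FPKM in wounds, beside 709 to 1053, 750 to 1263 and 427 to 932 FPKM in unwounded skin. Of 5 skeletal muscle markers 4 fell in back and 0 were called in abdomen or cheek by limma (0 and 3 with an unadjusted p under 0.05). The medians of their sums were 6366, 14290 and 12989 FPKM in unwounded skin and 2312, 3105 and 4609 FPKM in wounds. The part of cell content in the chemokine changes was not tested.

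Libraries of the same group differed in ways that several chemokines shared. After the mean of each of the 6 groups was subtracted from log2(FPKM + 0.5), Cxcl16 and Ccl5 varied together (Pearson r = 0.77, Spearman rho = 0.85 over 24 libraries of 12 mice), as did Cxcl9 and Cxcl10 (0.73 and 0.77), Cxcl10 and Ccl5 (0.65 and 0.61) and Cxcl9 and Ccl5 (0.64 and 0.64). Cxcl16 had r of 0.50 with both Cxcl9 and Cxcl10 (rho = 0.61 and 0.58). Cxcl12 varied against Ccl27a (r = -0.51, rho = -0.41) and Ccl5 (r = -0.49, rho = -0.53). It had r of -0.35 with Ccl20, -0.20 with Cxcl9, -0.18 with Cxcl16 and 0.03 with Cxcl10. Ccl21a and Ccl27a had r = 0.51 (rho = 0.40). These are descriptions across libraries that share mice, and carry no test.

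Over all tested genes, genes were named from the 2 most like each chemokine by this measure. For Cxcl10 this was Irgm1 (r = 0.94), and Cxcl9 was most like Gbp2 (an interferon-inducible GTPase) and Arhgef2 (both 0.91). Ccl5 was most like Apobec3 and Psme1 (both 0.84), and Cxcl16 most like Nfkb2 (0.91) and Scimp (0.88). Ccl21a was nearest to Nbl1 (0.86) and Vat1 (0.83), Ccl27a to Inpp5k (0.83) and Klf15 (0.82), and Cxcl12 to Draxin (0.87) and Cdhr1 (0.86), both of which averaged under 1 FPKM. Cxcl13 was nearest to Fcna (0.76) and Txk (0.72), Cxcl14 to Il11ra1 (0.78) and Plvap (0.73) and Ccl20 to Hand2 (0.79) and Zfp866 (0.77). Txk and Hand2 also averaged under 1 FPKM. Spearman rho of the named genes ran from 0.58 (Txk) to 0.93 (Irgm1).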

How the data were processed

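RNA-seq of 24 skin libraries of 12 CD1 mice was used, with groups taken from the sample labels. Per the study's methods, reads were filtered and mapped to GRCm38/mm10 with HISAT2 and Bowtie2 2.2.5 and quantified with RSEM 1.2.12. The FPKM values deposited by the authors for 18368 genes carry 2 decimals and no scaling between libraries was stated; they summed to between 490830 and 608888 per library. Depth is unknown, and FPKM of genes with copies that are near-identical in part depends on how RSEM divides shared reads. A second deposited table, holding the authors' DESeq2 fold changes and adjusted p-values, was not used.

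The log2(FPKM + 0.5) values were fitted in limma 3.58.1 (statmod 1.5.0, R 4.3.3), with trended, robust moderation, keeping genes that reached 0.5 FPKM in 4 or more of the fitted libraries. Wound effects came from 24 libraries with a term for each mouse, and sites were compared within 12 unwounded or 12 wound libraries. Benjamini-Hochberg adjustment covered all genes tested, with a threshold of 0.05. Changes on this scale understate those of low genes. Single chemokines were also tested exactly, by sign changes over 4 pairs (smallest p 0.125) or permutation of 4 against 4 (smallest p 0.029), two-sided. The labels give each mouse both libraries. Over genes, deviations from group means correlated between libraries of a mouse with mean r of 0.322, 0.348 and 0.281 in abdomen, back and cheek (lowest -0.030, in abdomen). Between mice of a site the values were -0.108, -0.116 and -0.0958. Subtracting group means makes the latter negative whenever the former are positive, so they are no separate evidence of the pairing.

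The 10 chemokines, the lists of receptors, pathway genes and cell markers, and the rules were chosen with earlier results of these data known. All 10 chemokines and their receptors were named whatever their values, genes of the other lists when called, and the 2 genes most like each chemokine. Of 129 listed genes 126 were in the table; some items are not reported here and enter no count of a list. The fits were tested on simulated data. Alternatives were other pseudocounts, filters and scalings, other moderation and model terms, a threshold of 0.001, and each mouse left out. Sequences and gene positions came from RefSeq (GRCm38.p6) and shared 100-base words from GENCODE M21 transcripts, with Python; figures were drawn with matplotlib.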

Additional observations from a re-analysis of the deposited data

Results flagged for a closer look

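Of 60 sets of 4 libraries (10 chemokines in 6 groups), 2 had a library far from the others by Dixon's test; chance alone marks about 1 set in 20. Cxcl9 was 67.69 FPKM in the wound of cheek mouse 2, with 9.06 FPKM the next highest cheek wound. Ccl27a was 95.15 FPKM in the unwounded back skin of mouse 4, with 228.42 FPKM the next lowest, and in that library Ccl27b had its highest back value, 194.75 FPKM.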

How the results depend on the processing

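Of 2070 comparisons of a chemokine result with an alternative setting, 1948 kept their direction and side of the threshold, 64 lost a call, 14 gained one and 44 changed sign, none of them (0) a called result. Of the sign changes, 43 were differences between sites that were not called, with log2 values between -0.61 and 0.45 after the change, and 1 was the wound effect of Ccl27a in abdomen without mouse 1, whose log2 value ranged from -0.69 to 0.32 over the fits that left out a mouse. At a threshold of 0.001 the number of chemokines called for a wound effect was 0 in abdomen, 2 in back (Cxcl16 and Ccl5) and 1 in cheek (Cxcl16), and 0 between unwounded sites. Without the replicate block by mouse, 3 chemokines were called in cheek wounds (Cxcl12, Cxcl16 and Ccl5). Between sites the mice share only a number (mean r of their deviations between -0.17 and 0.018), and a replicate block by that number left 1 chemokine for unwounded back against abdomen (Ccl5) and 1 for cheek against abdomen (Cxcl16). For cheek against abdomen, no filter on low values and moderation without trend and robustness each left 1. With quantile normalization 1 was called between back and abdomen wounds (Ccl21a). Leaving out a mouse gave between 3 and 6 called in abdomen wounds, 4 and 6 in back, 3 and 6 in cheek, 0 and 3 for unwounded back against abdomen, 0 and 2 for unwounded cheek against abdomen, 0 and 1 for back against abdomen wounds and 0 and 2 for cheek against abdomen wounds (Ccl21a and Ccl27a, without abdomen mouse 1). Fits that left out a mouse had fewer libraries, and other causes were not tested. The depth behind these values is unknown.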
